A study of Mus musculus with 24 samples.

Results

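The comparison described here is that of Lama4 AKO mice with Lama4 fl/fl mice fed chow. It was made on the 12 chow libraries of the 24 in the series, 6 per genotype, each from the whole epididymal white adipose tissue (eWAT, called gWAT in the labels) of 1 mouse. All of these mice were male littermates on C57BL/6J with exon 3 of Lama4 flanked by loxP sites on both alleles. The fl/fl controls carried no Cre, and the AKO mice also carried a Cre recombinase driven by the adiponectin promoter, which is active in mature adipocytes, so the genotypes differ in the transgene as well as in the deletion. Mice were on chow for 20 weeks and were 24 to 26 weeks old at collection. The 12 HFD-fed mice of the same genotypes (45% of energy as fat, 20 weeks) are used below for the spread between mice and for values set beside those on chow. Poly(A) RNA of the whole tissue was read from its 3′ ends (QuantSeq), and the values are raw counts per gene, given here as CPM (counts scaled to one library total, after TMM normalization), as the lowest, median and highest of the 6 mice.

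Laminins are trimers of an α, a β and a γ chain that form the sheet-like network of basement membranes, together with collagen IV, nidogens and perlecan. Each mature adipocyte is enclosed by such a membrane, and laminin α4 is the main α chain there as well as a chain of the vessel wall. Integrins and dystroglycan on the cell surface bind laminins. A fat pad holds adipocytes, endothelial cells, pericytes, stromal progenitors, macrophages and other leukocytes, and in bulk RNA fewer cells of a type and less RNA per cell cannot be told apart.

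The chow libraries held between 5579590 counts (AKO 5) and 18764516 counts, with 16201 to 16674 genes detected. Adipocyte markers were present in every library, and of 9 epididymis and testis markers 2 were in the table and none reached the expression filter. Libraries stood apart within both genotypes. The first principal component of the 12 mice held 42.4% of the variance and put fl/fl 1 (84.98) and fl/fl 3 (-64.6) at its ends, with AKO 1 (58.7) and AKO 3 (54.5) near the former. The floxed exon lies far from the 3′ end that was sequenced. The 3′ counts of Lama4 (ENSMUSG00000019846, chr10:38965515-39110188, GRCm38) thus do not read the deleted part. They read the level of the transcript that remains, which is compared between the genotypes below. By quantitative PCR, the paper reports lower Lama4 mRNA in eWAT of chow-fed AKO mice. Lama4 stood at 41.2, 91.7 and 196 CPM in fl/fl mice and at 64.2, 113 and 133 CPM in AKO mice, a difference of 0.23 in mean log2 CPM (two-sided exact permutation test, p = 0.524, n = 6 per group, smallest possible p = 0.0022). In edgeR's fit its log2 fold change was 0.11 ± 0.34 on chow and -0.69 ± 0.35 on HFD. The 3′ counts on chow thus showed no lower Lama4 in AKO mice, unlike the paper's quantitative PCR. They do not show that the levels were equal, and the reason for this contrast was not tested.

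Few genes met the criteria for a difference between the genotypes on chow. Of 15020 genes tested, 17 met the call criteria (absolute fold change of at least 1.5, nominal p of at most 0.001 and at least 2 CPM in the higher group), which is 0.113% of the genes tested. In AKO mice 10 of them were higher (0.0666%) and 7 were lower (0.0466%). No gene reached an adjusted p of 0.05 in edgeR's quasi-likelihood test with Benjamini-Hochberg adjustment (0% of genes), the lowest adjusted p being 0.278. At a nominal p under 0.05 there were 878 genes (5.85%), 394 higher (2.62%) and 484 lower (3.22%). DESeq2 gave 5 genes at an adjusted p of at most 0.05, limma-voom 0 and limma-voom with sample quality weights 763. For 39 genes (0.26%) the 6 AKO values and the 6 fl/fl values did not overlap, 20 of them higher (0.133%) and 19 lower (0.126%), and 10 of the 17 called genes were among these. With 6 mice per group a share of 0.0022 of the possible label splits separates a gene fully. The share of genes found is near that, so a lack of overlap in single genes is a description. The median log2 fold change over all genes was 0.004, and the median standard error of a gene was 0.24. The number of called genes rested on single mice: it was 65 without fl/fl 1, 40 without AKO 2, 11 without fl/fl 3, 10 without fl/fl 4 or fl/fl 6, 8 without AKO 4, 6 without fl/fl 2 and 4 without AKO 3. Just outside the criteria, at nominal p from 0.0011 to 0.0012, were Cox7c, Smtn, Snord118, Ndufa6 and mt-Co1.

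Plxnd1, which encodes plexin D1, a receptor for semaphorins that guides vessels and nerves, was 1.67-fold higher in AKO mice. It stood at 20.6, 32.9 and 36.95 CPM in fl/fl mice and at 37.00, 53.1 and 67.1 CPM in AKO mice. All 6 AKO mice were above all 6 fl/fl mice, though the nearest values of the 2 genotypes almost touched (log2 fold change 0.74 ± 0.15 SE, n = 6 per group, adjusted p = 0.278, edgeR). Zfp949, a zinc finger protein gene, was 2.38-fold higher, at 2.11, 4.86 and 5.80 CPM against 6.38, 10.5 and 12.4 CPM, with no overlap (1.25 ± 0.25, adjusted p = 0.278, edgeR). Zfp949 met the criteria under each of 10 other settings and in each of 12 fits without 1 chow mouse. Plxnd1 did so in 9 of 10 and 12 of 12, and it fell short with offsets for transcript length and GC content (0.49). The other called genes all had an adjusted p of 0.634 in edgeR's test. Among the members of the gene lists below that were not called, the lowest adjusted p was also 0.634, so that "higher" and "lower" there stand for a nominal p under 0.05 and not for a difference that held after adjustment. Against every count of list members on chow stand 2.62% of all genes higher and 3.22% lower at that p. Where 1 member of a list passed in a direction, the count is no result about that list.

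**Figure D1:**
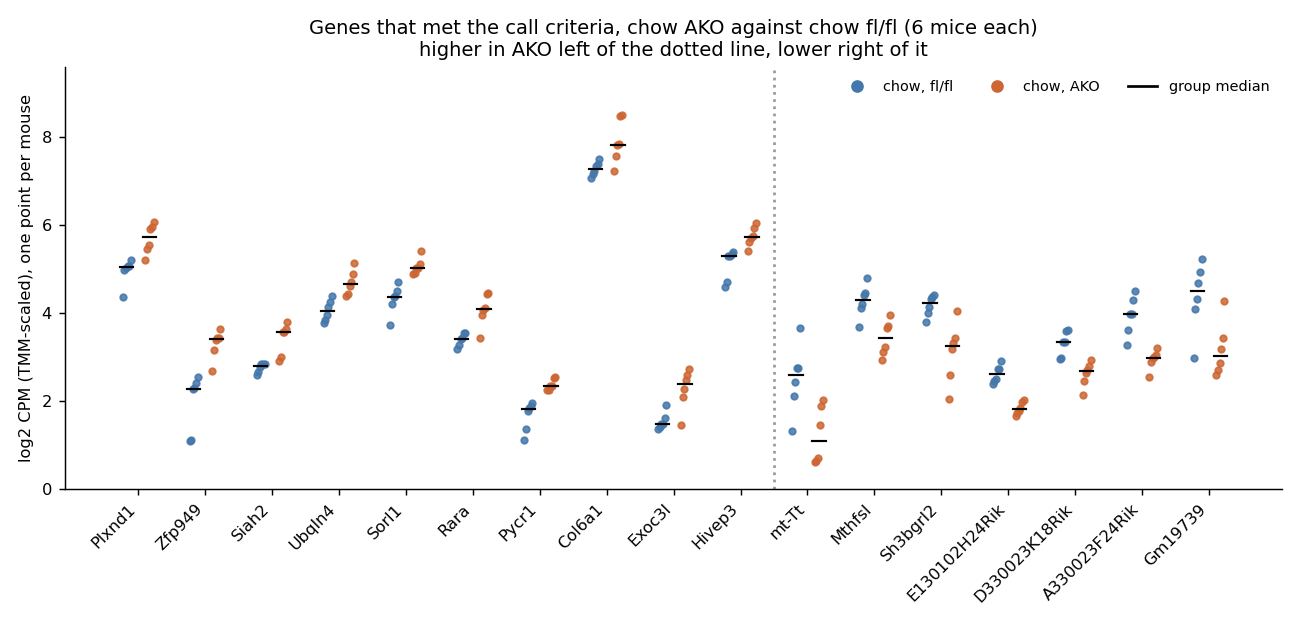
The plot of the 17 called genes gives log2 CPM on the vertical axis, with 1 point per mouse (blue fl/fl, orange AKO, 6 each on chow) and a black line at the group median. Genes left of the dotted line were higher in AKO mice (10) and those right of it lower (7), and the points of the 2 genotypes do not overlap for 10 of the 17.

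The other 8 called genes that were higher were Siah2, Rara, Hivep3, Sorl1, Ubqln4, Exoc3l, Pycr1 and Col6a1. Siah2, a ubiquitin ligase, stood at 6.05, 6.97 and 7.19 CPM in fl/fl mice and at 7.46, 11.8 and 13.8 CPM in AKO mice (log2 fold change 0.68 ± 0.16). Rara, the retinoic acid receptor α, stood at 9.08, 10.7 and 11.6 CPM against 10.8, 16.98 and 21.9 CPM (0.71 ± 0.18), with 5 of 6 AKO mice above every fl/fl mouse. Hivep3, a large zinc finger transcription factor, stood at 24.02, 39.2 and 41.5 CPM against 42.2, 53.0 and 66.1 CPM (0.62 ± 0.16). The genotypes did not overlap for Siah2 and Hivep3. Sorl1, a sorting receptor of endosomes, stood at 13.2, 20.7 and 26.2 CPM against 29.6, 32.5 and 42.6 CPM (0.73 ± 0.19), again without overlap. Ubqln4, a ubiquilin that carries proteins to the proteasome, stood at 13.6, 16.4 and 20.7 CPM against 20.96, 25.2 and 35.0 CPM (0.65 ± 0.16). Exoc3l, related to a subunit of the exocyst that tethers secretory vesicles, stood at 2.58, 2.78 and 3.73 CPM against 2.73, 5.22 and 6.60 CPM (0.78 ± 0.21). The Ubqln4 values did not overlap, while 1 AKO mouse lay within the fl/fl range for Exoc3l. Pycr1, which makes the last step of proline synthesis, stood at 2.17, 3.49 and 3.86 CPM against 4.77, 5.05 and 5.84 CPM (0.69 ± 0.18), without overlap. Col6a1, a chain of collagen VI, the microfibrillar collagen around adipocytes, stood at 133, 155 and 182 CPM against 149, 227 and 362 CPM (0.69 ± 0.18). Of the 10 higher genes, 6 were in the 20% of genes richest in GC, and none of the 7 lower genes was. Exoc3l and Sorl1 overlap antisense genes in the annotation, and since the use of strand in the counting is not stated their reads may include those.

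The 7 called genes that were lower in AKO mice were 1 mitochondrial tRNA, 3 long noncoding RNAs, 1 processed pseudogene and 2 protein-coding genes. Sh3bgrl2, a small protein with an SH3-binding motif, stood at 13.9, 18.7 and 21.4 CPM in fl/fl mice and at 4.10, 9.53 and 16.6 CPM in AKO mice (-0.96 ± 0.24), with 5 of 6 AKO mice below every fl/fl mouse. Mthfsl, a copy of the folate enzyme gene Mthfs, stood at 12.8, 19.8 and 27.9 CPM against 7.56, 10.97 and 15.4 CPM (-0.85 ± 0.21), and reads may be split between the copies. Sh3bgrl2 and Mthfsl also overlap noncoding genes on the other strand (Gm39384 and Gm10634), whose reads may be included. mt-Tt, the mitochondrial tRNA for threonine, stood at 2.47, 6.06 and 12.6 CPM against 1.54, 2.18 and 4.04 CPM (-1.32 ± 0.31). It is 67 bases long and of low count, and the origin of its reads in a poly(A) method was not tested. These 3 genes overlapped between genotypes. The pseudogene Gm19739 stood at 7.83, 22.6 and 37.3 CPM against 6.01, 8.19 and 19.3 CPM (-1.24 ± 0.32), and its reads may come from its parent gene. D330023K18Rik, a noncoding transcript of chromosome 2, stood at 7.72, 10.1 and 12.3 CPM against 4.38, 6.39 and 7.63 CPM (-0.69 ± 0.18), without overlap.

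The remaining pair of noncoding RNAs are hosts of microRNAs. A330023F24Rik (chr1:194976375-195037904, forward strand, GRCm38) contains Mir29b-2 and Mir29c, and stood at 9.61, 15.8 and 22.4 CPM in fl/fl mice and at 5.78, 7.90 and 9.14 CPM in AKO mice (-1.04 ± 0.26). E130102H24Rik (chr4:101346531-101356735, reverse strand) contains Mir101a, and stood at 5.23, 6.10 and 7.54 CPM against 3.14, 3.50 and 4.04 CPM (-0.79 ± 0.20). All 6 AKO mice were below all 6 fl/fl mice for both hosts. The mature microRNAs were not measured by this method, so the values are those of the host genes. On the other strand, A330023F24Rik overlaps the end of the protein-coding gene Cd46, and E130102H24Rik overlaps 0610043K17Rik. The use of strand in the counting is not stated, so the reads of both hosts may include those genes. MicroRNAs bind sites in 3′ untranslated regions through their seed, bases 2 to 8, and the miR-29 family is known for sites in collagen mRNAs. The mature sequences (RefSeq, GRCm38.p6) are shown because they are the products of these hosts. Their seeds are in capitals, and miR-29b and miR-29c share theirs, which is the one searched for below.
mmu-miR-29b-3p: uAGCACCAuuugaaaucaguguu
mmu-miR-29c-3p: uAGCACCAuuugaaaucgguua
mmu-miR-101a-3p: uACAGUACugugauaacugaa
These lie at chr1:195037091-195037113 and chr1:195037600-195037621 on the forward strand and at chr4:101346957-101346977 on the reverse strand. miR-29b-3p is also encoded by a second locus, Mir29b-1 on chromosome 6.

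In the basement membrane, Col4a1, Col4a2, Col15a1, Nid2 and Hspg2 were higher at nominal p in AKO mice. Of 19 other basement membrane genes tested, 5 were higher and 0 lower at nominal p under 0.05, against 2.62% and 3.22% of all genes, with a median log2 fold change of 0.29. Col4a1, an α chain of the collagen IV network, stood at 533, 609 and 670 CPM in fl/fl mice and at 705, 758 and 997 CPM in AKO mice, with no overlap (0.43 ± 0.14). Its partner Col4a2, transcribed from the same promoter region in the opposite direction, stood at 338, 389 and 563 CPM against 436, 522 and 576 CPM (0.29 ± 0.13). Nid2, nidogen 2, which links laminin to collagen IV, stood at 29.3, 32.8 and 42.9 CPM against 37.9, 52.0 and 100.001 CPM (0.82 ± 0.27). Hspg2, the heparan sulfate proteoglycan perlecan, had a log2 fold change of 0.56 ± 0.26, and Col15a1, collagen XV of the outer basement membrane, of 0.27 ± 0.13. The adjusted p of these genes was at least 0.730 in edgeR's test. The genotypes overlapped for all of them but Col4a1. The other collagen IV chains Col4a4 (0.33), Col4a5 (0.37) and Col4a6 (-0.12) and Nid1 (0.43), Col18a1 (0.29), Sparc (0.30) and Agrn (0.10) did not reach nominal p, and Col4a3 did not pass the expression filter. The number of higher members was 2 without any of fl/fl 2, fl/fl 5, AKO 3 or AKO 4, 3 without fl/fl 4, fl/fl 6 or AKO 2, and 1 with offsets for transcript length and GC content.

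Of the 10 laminin chains tested, 1 was higher at nominal p and none lower, against 2.62% and 3.22% of all genes, with a median of 0.09. A single chain is no result about the list. That chain was Lama5, the α5 chain, which stood at 5.50, 6.93 and 8.99 CPM in fl/fl mice and at 6.32, 9.61 and 16.9 CPM in AKO mice (0.62 ± 0.24). Lamb1 (-0.09) and Lamc1 (0.47), whose products pair with α4, did not reach nominal p, nor did Lama2 (-0.25), Lama3 (0.10), Lamb2 (0.09), Lamb3 (0.32) and Lamc3 (0.04). Of 10 laminin receptor genes 1 was higher, Itga7, the integrin α7 subunit, at 68.0, 95.8 and 119 CPM against 84.2, 157 and 291 CPM (0.79 ± 0.31). Itgb1 (0.13), Dag1 (0.03) and Mcam (0.78), which encodes a laminin α4 receptor of vessels, did not reach nominal p.

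Of 11 fibrillar collagens and collagen VI genes, 3 were higher (27.3%, against 2.62% of all genes, median 0.09). Besides Col6a1 they were Col6a2 at 181, 256 and 341 CPM against 247, 351 and 423 CPM (0.43 ± 0.14), and Col5a1, which controls fibril diameter, at 131, 144 and 217 CPM against 148, 214 and 234 CPM (0.39 ± 0.15). Among 20 matrix proteases and inhibitors, Mmp15 (0.68) and Adamts5 (0.74) were higher and Mmp11, a matrix protease of adipose stroma, was lower (-0.70). No member of these lists other than Col6a1 was called.

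Matches to the seed of miR-29 were counted in all genes. The letters TGGTGCT, read on the gene's own strand in the 3′ untranslated region, were present in 13.3% of tested genes 1 time and in 2.64% at least 2 times. The sites below, with the seed match in capitals, were picked from matrix genes that were higher at nominal p. A link between these sites and the host of Mir29b-2 and Mir29c, which was lower in the same mice, was not tested.
Col4a1, chr8:11199753-11199780, reverse strand: accgtcacaacaTGGTGCTactcccccc
Col4a2, the first of its pair of sites, chr8:11448347-11448374, forward strand: ggaaggccacgtTGGTGCTtatccttct
Col15a1, chr4:47312488-47312515, forward strand: caatccacatatTGGTGCTagattctgc
Col6a2, chr10:76598742-76598769, reverse strand: cacaaatgggggTGGTGCTatttgaacg
Of the matrix genes tested, 16 had a match (median 0.33, 5 higher at nominal p) and 22 had none (median 0.09, 4 higher). The 4 higher genes with no match were Col6a1, Nid2, Hspg2 and Lama5. On HFD the host A330023F24Rik had a log2 fold change of 0.19 ± 0.26. Over all genes the medians were 0.002 with no match (11148 genes), 0.042 with 1 (1763 genes) and 0.019 with more (350 genes), and these genes also differ in the length of the untranslated region, whose median was 1024, 2343 and 3688 bases. A match is a description of letters and not of binding.

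Among 29 semaphorins, plexins and neuropilins, which are guidance ligands and their receptors, 4 were higher and 0 lower at nominal p, against 2.62% and 3.22% of all genes (median 0.05). Beside Plxnd1 the receptor Plxna3 stood at 2.05, 3.26 and 3.52 CPM in fl/fl mice and at 3.07, 3.79 and 5.91 CPM in AKO mice (0.50 ± 0.22). The ligand Sema3f stood at 3.13, 3.91 and 7.22 CPM against 5.12, 5.99 and 13.9 CPM (0.80 ± 0.29), and the membrane-anchored ligand Sema7a at 6.31, 6.84 and 8.91 CPM against 5.47, 9.33 and 19.1 CPM (0.55 ± 0.22). The genotypes overlapped for these 3 genes. Nrp1 (-0.11) and Nrp2 (-0.17), the coreceptors, did not reach nominal p. Without AKO 4, 2 members were higher, as with offsets for length and GC content.

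**Figure D2:**
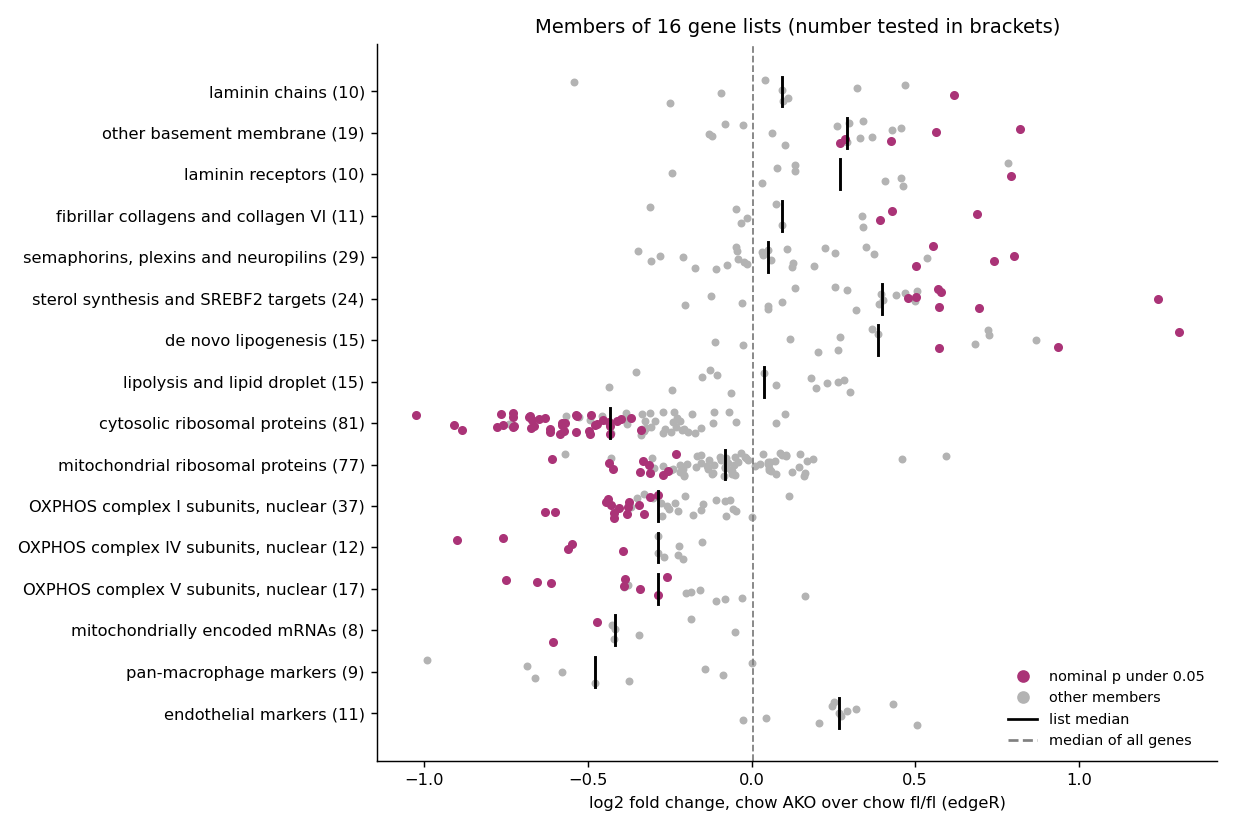
Each point in the plot of gene lists is 1 gene, placed by its log2 fold change in chow AKO over chow fl/fl on the horizontal axis, in 16 lists with the number tested in brackets. Purple points had a nominal p under 0.05, black bars are list medians and the dashed line is the median of all genes: purple points lie to the right for sterol synthesis and basement membrane genes and to the left for ribosomal and OXPHOS genes.

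Some genes of sterol synthesis and of fatty acid synthesis were higher at nominal p in AKO mice. Of 24 sterol synthesis genes and targets of SREBF2, a transcription factor of sterol synthesis genes, 7 were higher and 0 lower at nominal p, against 2.62% and 3.22% of all genes (median 0.40). Insig1, which holds SREBPs in the endoplasmic reticulum and is itself a target of theirs, stood at 38.8, 51.6 and 90.1 CPM in fl/fl mice and at 46.7, 127 and 211 CPM in AKO mice (1.24 ± 0.42). Srebf2 itself stood at 23.3, 27.4 and 33.8 CPM against 24.9, 43.4 and 59.5 CPM (0.57 ± 0.19). The enzyme genes Pmvk (0.58), Dhcr7 (0.57) and Lss (0.50) were also at nominal p under 0.05. Hmgcs1 (0.09), Sc5d (0.51) and Ebp (0.05), which had the highest counts of the list, did not reach nominal p. The summed level of the list was lowest in AKO 5 and AKO 6 and the 4 other AKO mice were above all fl/fl mice. Adipocyte markers were also lowest in AKO 5 and AKO 6, with a summed level of 14597 and 14775 CPM against 23189 to 36216 CPM in the other AKO mice, and the part of this in the list was not tested. The number of higher members was 12 without AKO 6, 3 without AKO 2 or AKO 4, and 4 without fl/fl 1 or fl/fl 5. In de novo lipogenesis, 3 of 15 genes were higher (median 0.39): Scd2, a fatty acid desaturase, at 89.6, 122 and 139 CPM against 116, 305 and 491 CPM (1.31 ± 0.41), Acss2 (0.94) and Acly (0.57), which make acetyl-CoA. Fasn (0.87 ± 0.46) and Scd1 (0.39) did not reach nominal p. The summed level of lipogenesis genes was highest of all 12 mice in fl/fl 1 (15013 CPM), and stood at 2364 to 4417 CPM in the other fl/fl mice, at 5327 to 13008 CPM in AKO 1 to AKO 4 and at 3023 and 4252 CPM in AKO 5 and AKO 6. The count was 8 without fl/fl 1, 5 without AKO 5 and 1 without AKO 1.

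Other adipocyte programs showed few genes at nominal p. Lep, which encodes the adipocyte hormone leptin, stood at 574, 1406 and 1718 CPM in fl/fl mice and at 1215, 3075 and 5530 CPM in AKO mice (1.16 ± 0.50). Apln, which encodes the peptide apelin, stood at 8.28, 11.8 and 15.98 CPM against 10.4, 17.3 and 29.9 CPM (0.65 ± 0.29). Of 14 adipokine genes these 2 were higher (14.3%, against 2.62% of all genes) and none lower, with Adipoq (-0.04), Cfd (-0.55), Retn (0.38) and Rbp4 (0.42) spread widely over mice. Cebpb, a transcription factor of early adipogenesis, was the adipogenic factor of 14 at nominal p, at 24.2, 31.7 and 59.7 CPM against 45.3, 53.8 and 97.4 CPM (0.75 ± 0.23). No gene reached nominal p among 15 of lipolysis and the lipid droplet (median 0.04), 19 of fatty acid uptake and triglyceride synthesis (0.06), 17 of insulin signaling and glucose uptake (0.05), 18 of β-oxidation (-0.03) and 10 thermogenic genes (-0.18). A gene that misses nominal p is not shown to be at the same level in both genotypes.

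Genes of the cytosolic ribosome made up the list with the most members lower at nominal p in AKO mice. Of 81 ribosomal protein genes tested, 79 had a negative log2 fold change and 40 were lower at nominal p under 0.05, against 3.22% of all genes, and 0 were higher. The median was -0.43. Their summed level was 27100, 48189 and 63473 CPM in fl/fl mice and 26140, 33801 and 46320 CPM in AKO mice. The lowest fl/fl mouse was fl/fl 1, and the other 5 fl/fl mice were above all 6 AKO mice. Rpl39, the member with the lowest p, stood at 195, 472 and 762 CPM against 179, 267 and 415 CPM (-0.91 ± 0.26). No member was called and no pair of groups was free of overlap. The number of lower members was 23 without AKO 4, 24 without fl/fl 2 or AKO 3, 25 without fl/fl 3 and 56 without fl/fl 1. Of 77 mitochondrial ribosomal protein genes 10 were lower and 0 higher (median -0.08), led by Mrps18c (-0.61 ± 0.19). Several ribosomal protein genes have processed pseudogenes of nearly the same sequence, so that their reads are uncertain in part.

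Vertebrate ribosomal protein genes share a pyrimidine-rich start. CTTTCC on the gene's own strand, in the window from 20 bases before to 50 after the start site, was present in 30.5% of the 59 ribosomal protein genes with a RefSeq promoter (GRCm38.p6), in 4.41% of 68 mitochondrial ribosomal protein genes and in 3.79% of all 27025 promoters. The promoters of Rps27 and Rpl35a are printed as examples of lower members that hold it close to the start site, and were chosen after their values were seen. They run from 250 bases before to 50 after the start site, with the motif inside the searched window in capitals. Rpl35a holds a further match upstream of that window, left in lower case.
Rps27, chr3:90213599-90213898, reverse strand: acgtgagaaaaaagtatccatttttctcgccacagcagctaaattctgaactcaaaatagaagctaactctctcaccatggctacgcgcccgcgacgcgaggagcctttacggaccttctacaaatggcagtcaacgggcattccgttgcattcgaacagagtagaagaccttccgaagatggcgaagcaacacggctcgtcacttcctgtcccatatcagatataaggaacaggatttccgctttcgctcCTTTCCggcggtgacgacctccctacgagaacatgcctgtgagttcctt
Rpl35a, chr16:33056232-33056531, forward strand: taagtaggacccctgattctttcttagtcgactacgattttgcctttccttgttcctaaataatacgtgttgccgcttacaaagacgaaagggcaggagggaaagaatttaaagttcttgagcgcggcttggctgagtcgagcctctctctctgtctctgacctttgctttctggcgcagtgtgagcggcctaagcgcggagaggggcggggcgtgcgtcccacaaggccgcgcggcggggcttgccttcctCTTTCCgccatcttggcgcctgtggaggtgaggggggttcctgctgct
Rps27 stood at 324, 594 and 875 CPM in fl/fl mice and at 272, 378 and 471 CPM in AKO mice (-0.68 ± 0.20). Rpl35a had a log2 fold change of -0.66 ± 0.25.

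Genes of oxidative phosphorylation (OXPHOS), the respiratory chain and ATP synthase of mitochondria, had members lower at nominal p in each of the 5 complexes. Of 79 nuclear subunit genes 33 were lower and 0 higher at nominal p, against 3.22% and 2.62% of all genes (median -0.28). By complex these were 15 of 37 in complex I, 1 of 4 in complex II, 4 of 9 in complex III, 5 of 12 in complex IV and 8 of 17 in complex V. Ndufa6 of complex I stood at 221, 310 and 415 CPM in fl/fl mice and at 136, 208 and 303 CPM in AKO mice (-0.60 ± 0.16). Cox7c of complex IV stood at 295, 456 and 631 CPM against 168, 288 and 359 CPM (-0.76 ± 0.20). Sdhb of complex II (-0.32), Uqcrb of complex III (-0.56) and Atp5md of complex V (-0.66) were the members of the other complexes with the lowest p. The genotypes overlapped for each of these 5 genes, and Ndufa1 of complex I was the member for which they did not, at 127, 138 and 192 CPM against 93.0, 111 and 125 CPM (-0.42 ± 0.18). Transcripts of the mitochondrial genome pointed the same way: all 8 mRNAs had negative estimates (median -0.42) and 2 were at nominal p, mt-Co1 at 1067, 1298 and 1616 CPM against 584, 836 and 1255 CPM (-0.61 ± 0.17) and mt-Nd5 (-0.47). Of 16 mitochondrial tRNAs and rRNAs mt-Tt and mt-Ti (-0.76) were lower (median -0.49). The number of lower nuclear subunits was 19 without AKO 4 and 20 without fl/fl 3, and 14 without fl/fl 3 and AKO 5 together.

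Length and base composition moved with these differences. In the 20% of genes with the shortest transcripts (57 to 1626 bases) 9.04% were lower and 1.27% higher at nominal p, and in the 20% with the longest 0.834% were lower and 3.47% higher. In the 20% of genes lowest in GC 4.44% were lower and 0.867% higher, and in the 20% highest in GC 1.10% were lower and 6.50% higher. The median transcript was 914 bases for cytosolic ribosomal proteins and 908 for nuclear OXPHOS subunits, but 5595 for basement membrane genes and 2921 for sterol genes. With offsets for transcript length and GC content per library, chosen after the data were seen, 25 ribosomal proteins (median -0.30) and 11 nuclear OXPHOS subunits (-0.16) were lower, and 6 sterol genes (0.38), 3 lipogenesis genes (0.39) and 1 basement membrane gene (0.20) were higher. The medians of the fibrillar collagens and collagen VI (-0.04) and of the semaphorins and plexins (-0.09) changed sign. Of the 17 called genes, Zfp949, Sh3bgrl2 and A330023F24Rik still met the criteria.

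**Figure D3:**
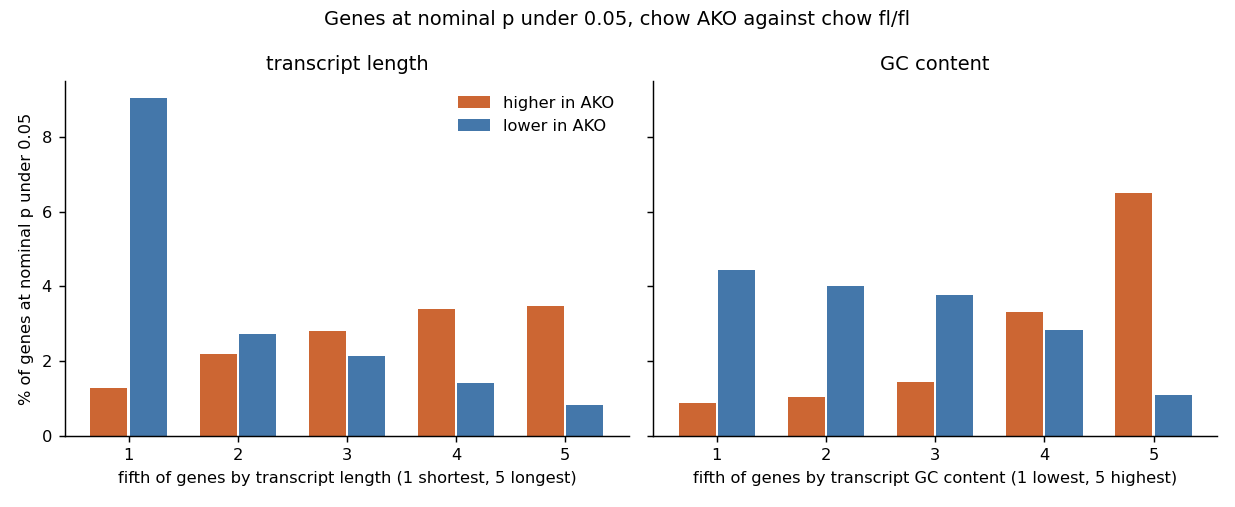
Bars in the plot of length and GC content give the percent of genes at nominal p under 0.05 that were higher (orange) or lower (blue) in chow AKO than in chow fl/fl mice, in bins of 20% of genes by transcript length (left) and GC content (right). Lower genes peak at 9.04% in the bin of shortest transcripts and higher genes at 6.50% in the bin richest in GC.

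Small nucleolar RNAs and proteasome subunits had members lower at nominal p, where 3.22% of all genes were lower. Of 13 small nucleolar RNAs tested 3 were lower (23.1%, median -0.46): Snord118, the U8 RNA of ribosomal RNA processing, at 2.27, 9.29 and 34.1 CPM in fl/fl mice and 2.11, 3.21 and 7.19 CPM in AKO mice (-1.63 ± 0.44), Snord13 (-1.24) and Snord104 (-0.57). These RNAs carry no poly(A) tail as a rule, and 1 remained without fl/fl 2. Nr1d2, which encodes the clock repressor REV-ERBβ, was the circadian gene of 18 at nominal p, at 32.6, 46.2 and 76.0 CPM against 21.4, 29.2 and 31.9 CPM, without overlap (-0.81 ± 0.27). Among 24 genes of hypoxia and glycolysis Hif1a was higher (0.37) and Pdk1, which limits entry of pyruvate into mitochondria, was lower (-0.42). Of 31 proteasome subunits 4 were lower (12.9%, median -0.07), Psma1 (-0.37), Psma3 (-0.34), Psmc6 (-0.37) and Psma2 (-0.47). Of 19 unfolded protein response genes Edem1 (0.34) was at nominal p. No gene reached it among 23 immediate early genes, 19 of antioxidant defense and 21 of proliferation.

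Of the immune lists, cytokines and chemokines had members at nominal p in shares near the 5.85% of all genes, so their counts are no result about these lists. Of 46 cytokines and their receptors Il18r1 (1.14) and Csf1, the growth factor of macrophages (0.40), were higher and Il15 (-0.57) was lower at nominal p. Of 43 chemokines and receptors Ccl17 (2.31) and the scavenging receptor Ackr3 (0.75) were higher and the eosinophil receptor Ccr3 (-1.11) was lower. Ccl17 was low, at 0.23, 0.424 and 0.515 CPM in fl/fl mice and 0.327, 0.993 and 7.52 CPM in AKO mice. Tap2, a subunit of the peptide transporter of MHC class I loading, stood at 22.6, 42.6 and 53.0 CPM against 16.4, 94.5 and 152 CPM (1.22 ± 0.50). With Tapbp (0.39) it made 2 of 15 MHC and antigen presentation genes higher (13.3%, against 2.62% of all genes). This count ranged from 0 to 2 in fits without 1 mouse. None of 24 type I interferon response genes or 18 complement genes was at nominal p.

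Markers of the cell types of the fat pad were summed for each mouse. Of 15 marker lists none differed at an adjusted p of 0.05 in the two-sided exact permutation test. Stromal progenitor markers had the smallest p, with 1053, 1363 and 1617 CPM in fl/fl mice and 872, 1033 and 1323 CPM in AKO mice (-0.35 in log2, exact p = 0.019, adjusted p = 0.292), and of their 8 members Dpt was lower at nominal p (-0.40). Pan-macrophage markers stood at 1305, 6922 and 10266 CPM against 1930, 3535 and 7709 CPM (-0.59, exact p = 0.290), with fl/fl 1 far below the other fl/fl mice. Lipid-associated macrophage markers stood at 597, 5646 and 8711 CPM against 960, 3298 and 9326 CPM (-0.61, exact p = 0.426). Mast cell markers stood at 64.4, 241 and 529 CPM against 38.3, 58.5 and 432 CPM (-1.17, exact p = 0.145). In AKO mice pan-macrophage, lipid-associated macrophage and mast cell markers were highest in AKO 5 and AKO 6, the same mice in which sterol genes and adipocyte markers were lowest, while resident perivascular macrophage markers were highest in AKO 2 (1094 CPM) and stood at 794 CPM in AKO 5 and 695 CPM in AKO 6. Within the mast cell list 7 of 8 estimates were negative, while Kit, the receptor of stem cell factor, was higher (0.76 ± 0.27) at 3.01, 5.46 and 5.99 CPM against 4.13, 7.94 and 12.1 CPM. Adipocyte markers stood at 17897, 30638 and 43769 CPM against 14597, 27942 and 36216 CPM (-0.25, exact p = 0.420), endothelial markers at 536, 698 and 1027 CPM against 585, 926 and 1176 CPM (0.28, exact p = 0.173), and pericyte and smooth muscle markers at 278, 383 and 648 CPM against 284, 645 and 1078 CPM (0.53, exact p = 0.171). The other lists had exact p of at least 0.535. No marker of the adipocyte, macrophage, mast cell, endothelial, pericyte or stromal lists was at 0 in any chow library. The part of these cell types in the gene lists above was not tested.

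**Figure D4:**
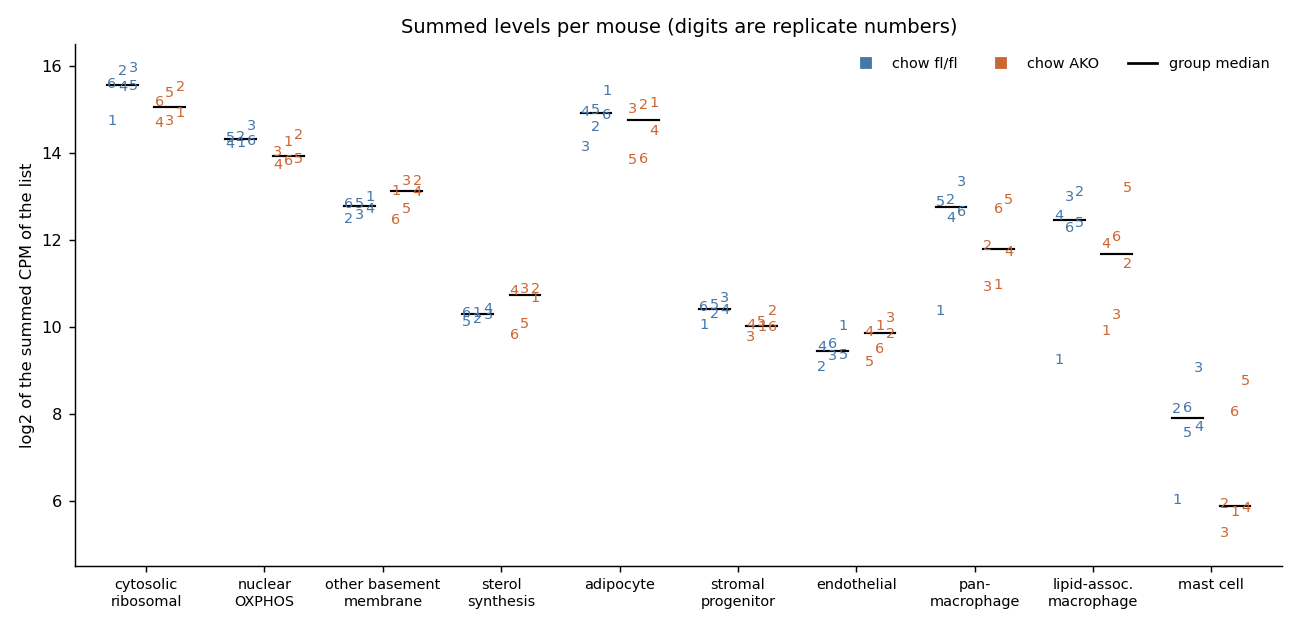
The plot of summed levels shows log2 of the summed CPM of 10 gene lists for each chow mouse, with the replicate number as the symbol (blue fl/fl, orange AKO) and a black line at the group median. Digits of the 2 genotypes overlap in every list, and fl/fl 1 lies low for both macrophage lists. AKO 5 and AKO 6 lie low for sterol genes. Among AKO mice only, they lie high for those macrophage lists and for mast cell markers, within or near the fl/fl values.

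By position, chromosome 9 held 4 of the 17 called genes (Zfp949, Mthfsl, Sh3bgrl2 and Sorl1) and 6 of the 21 genes at a nominal p of at most 0.001, and 5.59% of the genes tested (840). Zfp949 (chr9:88548020-88571061) and Mthfsl (chr9:88688602-88720296) are 117540 bases apart and differed in opposite directions. The other pair at that p were Plscr4, a phospholipid scramblase, at 23.2, 25.2 and 31.1 CPM in fl/fl mice and 14.96, 18.9 and 22.5 CPM in AKO mice (-0.46), and Gm28586, both without overlap. Gm28586 (chr9:100530616-100531071) is annotated as a sense intronic transcript within Nck1. It had 0 counts in all 6 fl/fl mice and 6 to 17 counts in each of the 6 AKO mice, 61 in all. Against the 3 counts that a total of 0 over the fl/fl group allows, it was at least 23.5-fold higher, while Nck1 itself had a log2 fold change of -0.08. Gm28586 could pass the expression filter only through AKO mice, so its adjusted p of 0.634 in edgeR's test is no test of the genotypes. HFD fl/fl 2 was the only HFD fl/fl mouse with counts of it (33), while all 6 HFD AKO mice had 17 to 50. In that HFD fl/fl mouse Zfp949 stood at 2.95 CPM, within the range of its group. Near Lama4, Tube1, a tubulin gene of low count, stood at 0.618, 1.04 and 1.48 CPM against 0.526, 0.580 and 0.683 CPM (-0.83 ± 0.29) and Fam229b at -0.11. On HFD Tube1 had a log2 fold change of 0.17. None of the genes tested within 250 kb of Adipoq, whose promoter drives the transgene, reached nominal p on chow. On HFD Adipoq itself (-1.16), Rfc4 (0.64) and St6gal1 (0.66) did, where 5.83% of all genes were higher and 8.99% lower. Rfc4 was at 0.35 on chow.

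The HFD-fed mice are separate animals, and their genotype difference was set beside that on chow. On HFD 26 genes met the criteria (0.173%) and 2227 genes had a nominal p under 0.05 (14.8%), 5.83% of genes higher and 8.99% lower. Of the 17 genes called on chow, 6 had the same sign on HFD and 1 of those, Zfp949, was also at nominal p. Zfp949 stood at 2.71, 3.56 and 4.49 CPM in HFD fl/fl mice and at 5.78, 7.07 and 10.9 CPM in HFD AKO mice, again without overlap (1.07 ± 0.25). Ubqln4 was lower in HFD AKO mice, at 20.4, 30.6 and 32.5 CPM against 14.3, 16.1 and 23.3 CPM (-0.72 ± 0.16). Plxnd1 stood at 44.5, 52.2 and 60.0 CPM against 34.6, 42.2 and 47.8 CPM on HFD (-0.34 ± 0.15), and Mthfsl at 10.7, 13.9 and 21.6 CPM against 17.8, 24.3 and 28.04 CPM (0.56 ± 0.20). These 3 genes thus had opposite signs on the 2 diets, each at nominal p.

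In the interaction of diet and genotype, which uses the same chow values that chose the genes, 58 genes met the criteria (0.386%), and 6 of the 17 were among them. The genotype difference on HFD minus that on chow was -1.36 ± 0.23 for Ubqln4 (adjusted p = 0.0499, edgeR), the only gene of all at an adjusted p of 0.05 (0.00666% of genes). It was -1.08 ± 0.21 for Plxnd1, 1.41 ± 0.29 for Mthfsl, 1.70 ± 0.44 for Gm19739, -0.98 ± 0.26 for Pycr1 and -1.15 ± 0.29 for Exoc3l, with adjusted p between 0.123 and 0.220 in edgeR's test.

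**Figure D5:**
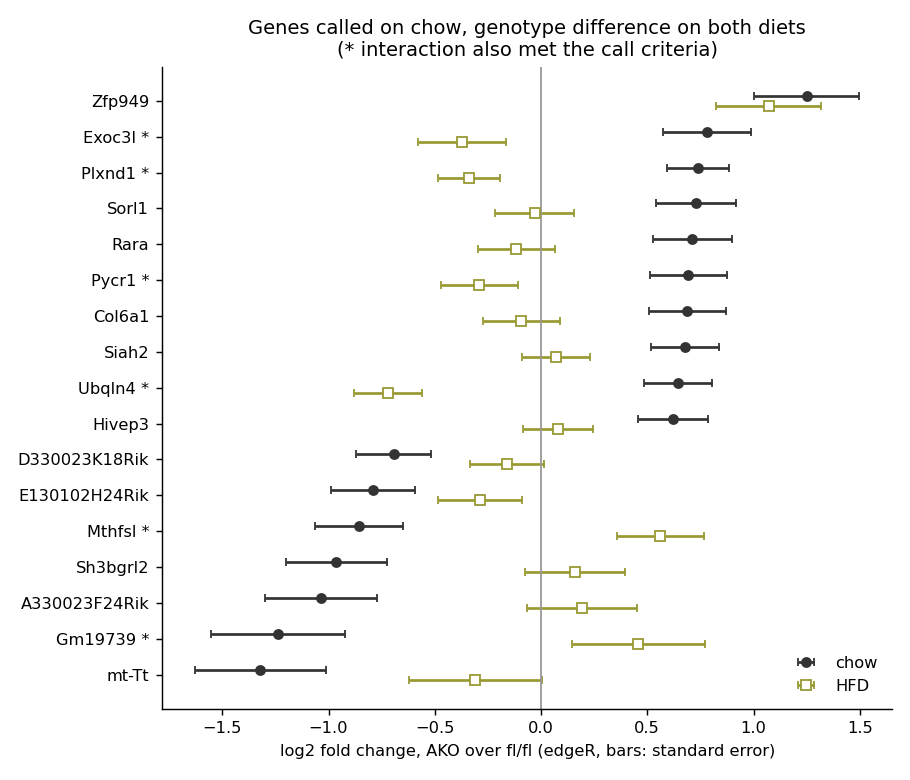
Filled circles in the plot of both diets give the log2 fold change of AKO over fl/fl on chow and open squares that on HFD for the 17 genes called on chow, with standard errors as bars. Zfp949 is far from 0 on both diets, and asterisks mark the 6 genes whose interaction met the criteria, for all of which the squares lie on the other side of 0.

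Several gene lists had medians of opposite sign on the 2 diets. On HFD the medians of sterol synthesis (-0.40, 6 of 24 lower and 0 higher at nominal p) and of de novo lipogenesis (-0.97, 12 of 15 lower and 1 higher) were negative, where both were positive on chow. Insig1 had a log2 fold change of -1.26 on HFD, Scd2 of -1.18 and Lep of -1.22, each at nominal p under 0.05. Adipokine genes had a median of -1.10 on HFD with 9 of 14 lower, against 0.01 on chow. Beside these lists on HFD, adipocyte markers, which share Lep and Adipoq with the adipokines, had a median of -0.87 (4 of 8 lower), pan-macrophage markers 0.52 (2 of 9 higher), lipid-associated macrophage markers 0.65 (0 of 6 at nominal p) and resident perivascular macrophage markers -0.48 (2 of 7 lower). On chow the medians of member estimates, as distinct from the summed levels above, were 0.19 for adipocyte and -0.48 for pan-macrophage markers. They were -0.63 for lipid-associated and 0.16 for resident perivascular macrophage markers. The part of these marker lists in the HFD values was not tested. Cytosolic ribosomal proteins had a median of 0.13 on HFD with 4 of 81 higher and 1 lower, and nuclear OXPHOS subunits a median of -0.12 with 12 of 79 lower. Among basement membrane genes Col4a2 (0.30) and Col15a1 (0.31) were higher at nominal p on HFD as on chow, while Col4a1 (0.02), Nid2 (-0.27) and Hspg2 (-0.005) did not reach it. Col5a1 was higher on both diets (0.42 ± 0.15 on HFD). Against these counts stand 5.83% of all genes higher and 8.99% lower at nominal p on HFD. The difference between the diets was not tested for these lists.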

How the data were processed

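The authors made the deposited table of raw counts per gene with the QuantSeq 3′ pipeline on the Bluebee platform. They also deposited a normalised signal, in which every count of a library is scaled by that library's size factor, and it served here for symbols and positions. Positions are those of GRCm38 (GENCODE release M21 where the table gave none). The labels list R 4.0.3 and DESeq2 1.30. The members and lists were chosen with earlier results of these data known.

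Raw counts were tested with edgeR 4.0.16 (R 4.3.3). A gene entered where 3 or more of the 24 libraries reached 1 CPM. After TMM scaling, all 24 libraries shared the quasi-likelihood fit, with a mean for each combination of diet and genotype, and p-values were adjusted by Benjamini and Hochberg. Standard errors are those of edgeR, and a nominal p is its unadjusted p. Single values were compared with two-sided exact permutation tests on log2 CPM (prior count 2). Alternatives included limma 3.58.1 (voom), DESeq2 1.42.0 and fits without each mouse. Fits were tested on simulated data. The study's methods set outlying libraries aside after a principal component analysis, without naming them in the sources used here, so every library was kept. Named genes are those called, laminin and basement membrane genes, the lowest p-values in each direction, list members with the lowest p-values and the neighbours of Adipoq and Lama4, and where 5 or fewer members of a list passed, the rest were named after their values were seen. The labels do not say whether same-numbered samples share a litter, and p-values measure the spread between these mice. No pair of libraries of a group agreed within counting error. An interval or floor from counts covers counting error only. Values of some list members are not reported here.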

Additional observations from a re-analysis of the deposited data

Results flagged for a closer look

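Among 68 groups of 6 values tested, 6 held a mouse far from the others, where chance gives about 1 in 20 groups. Plxnd1 was low in chow fl/fl 1, at 4.38 log2 CPM with the next mouse at 4.99. The same mouse had the lowest summed log2 level of pan-macrophage markers (10.35, next 12.50), of lipid-associated macrophage markers (9.22, next 12.26) and of neutrophil markers (4.29, next 7.46). Resident perivascular macrophage markers were highest in chow fl/fl 5 (10.07, next 9.68), and T and NK cell markers in chow AKO 6 (7.60, next 5.11).

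For 6 of the genes called on chow the interaction of diet and genotype met the call criteria in the edgeR fit, with an adjusted p of 0.0499 for Ubqln4 and of 0.123 to 0.220 for the other 5. The difference on HFD minus that on chow was -1.08 for Plxnd1, 1.41 for Mthfsl, -1.36 for Ubqln4, 1.70 for Gm19739, -0.98 for Pycr1 and -1.15 for Exoc3l, on the log2 scale. The chow values that chose these genes are part of the interaction, so that a shift away from them is favoured by the choice, and the values are a description.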

How the results depend on the processing

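Of 1164 values recomputed under other settings, 855 kept their direction and side of the threshold, 206 lost a call in the same direction, 83 counts moved by more than 1.5 times and 20 changed sign, all of these summed levels of marker lists that passed no threshold. The number of called genes was 17, and it was 0 by adjusted p, 4 at a fold change of at least 2, 41 with DESeq2 (19 higher, 22 lower), 289 with voom and sample quality weights (136 higher, 153 lower), 9 with only the chow libraries in the fit (7 higher, 2 lower) and 6 with offsets for length and GC content. Voom without weights gave 19 (9 higher, 10 lower). Leaving out 1 mouse gave 4 to 65 called genes, with the extremes without chow AKO 3 and without chow fl/fl 1 (11 higher, 54 lower), and 3 to 6 interactions among the called genes in place of 6, with 3 without chow fl/fl 2, chow AKO 1, chow AKO 3, HFD fl/fl 4 or HFD AKO 4. The cause was not tested.

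With the replicate number as a block 10 genes were called (4 higher, 6 lower). Same-numbered samples of the 2 genotypes had correlations of deviations of 0.71, -0.34, -0.35, 0.32, -0.17 and 0.29. Of the 12 samples 6 correlated best with their own number, which is more than an even draw among 6 numbers gives. These values of mixed sign do not settle whether the numbers are pairs. The labels do not say so, and the main fit did not use the numbers.

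The difference in resident perivascular macrophage markers became 0.0011 with RLE size factors and 0.062 with no scaling, and ranged from -0.094 to 0.067 without 1 mouse. That in erythroid markers became 0.036 with no scaling and 0.218 without fl/fl 3 and AKO 5, and ranged from -0.202 to 0.170. That in T and NK cell markers became 0.095 without fl/fl 3 and AKO 5, and ranged from -0.657 to 0.129. Mesothelial markers ranged from -0.109 to 0.437 and B and plasma cell markers from -0.065 to 0.497. Depth limits genes of a few CPM, most of all in AKO 5.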
